A study of Drosophila melanogaster with 20 samples.

Results

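The brains of young adult Drosophila melanogaster are described here by how bright each gene was on Affymetrix Drosophila 2 arrays. The members are the 5 arrays of wild-type 5905 flies aged 3 d, of 20 arrays in the series. They carry 13647 probe sets that name exactly 1 gene, of 18952 probe sets in all, and these read 11982 genes. The other 15 arrays hold wild type at 20 d and flies null for miR-34 at 3 d and 20 d, and they serve only for a short comparison at the end. All flies were reared on cornmeal molasses food at 25 °C and aged naturally, the tissue was dissected brain, and total RNA was labelled with biotin, per the labels. The labels name no sex, no number of brains per array and no allele beyond the line name, and they do not say whether the repeats came from separate flies, so the spread between arrays may be technical.

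A fly brain is made mostly of neurons, which signal through acetylcholine, GABA, glutamate, monoamines and peptides, with a smaller number of glial cells that wrap them, clear transmitter and feed them. Neurons fire and refill synaptic vesicles at a high cost in ATP, so mitochondria, the sodium pump and the vesicle proton pump are known as large consumers or suppliers of energy in this tissue. Ribosomal proteins and respiratory chain subunits are used by every cell. Receptors for odours and tastes belong to sensory neurons of the antennae and mouthparts, whose cell bodies lie outside the brain.

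A signal here is the brightness of a probe set on a linear scale that has the same trimmed mean of 150 units on each array. Probes differ in how well they bind, so the order of 2 genes is an order of brightness and not of molecule numbers. The size of that limit can be read from the 859 detected genes with at least 2 probe sets. In these the brightest probe set was a median of 10.8 times as bright as the dimmest. Among the 100 brightest genes 16 had at least 2 probe sets, and there this median was 56.7. Of the 859 genes 312 had a probe set above the line of detection, defined below, on no array. A gene was read by its brightest probe set. Genes are ordered by these values and groups are not compared, so no test was made. Counts of a list are to be read beside the shares of all genes, which are 64.2% for genes detected and 10% for the top 10%. Fewer cells of a type and less RNA per cell cannot be told apart in such bulk samples.

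The 5 arrays were close to each other, with Pearson's r from 0.998 to 0.999 between pairs across genes, which are not independent replicates. This r was computed on log2(signal + 16), which damps differences between dim genes. The line of detection was the 90th percentile of 64 genes of egg shell, larval glue, larval cuticle, seminal fluid and sperm, and lay between 9.17 and 12.8 units on the 5 arrays. A gene above this line on all 5 arrays was called detected, which held for 7696 genes or 64.2% of all. A further 526 genes (4.39%) passed it on 1 to 4 arrays, and 3760 genes (31.4%) on none. The line is a convention that sets these counts. Among the 27 control probe sets for the bacterial genes dap, lys, phe, thr and trpn the highest mean was 2.15 units, and with a line at their 90th percentile only 911 genes lay below it on every array. Since the line is a percentile of these 64 genes, some of them lie above it on each array by that rule. Those above it on every array numbered 6, led by Acp95EF, named as an accessory gland peptide gene, at 582 ± 52.4 units (SD, n = 5).

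**Figure D1:**
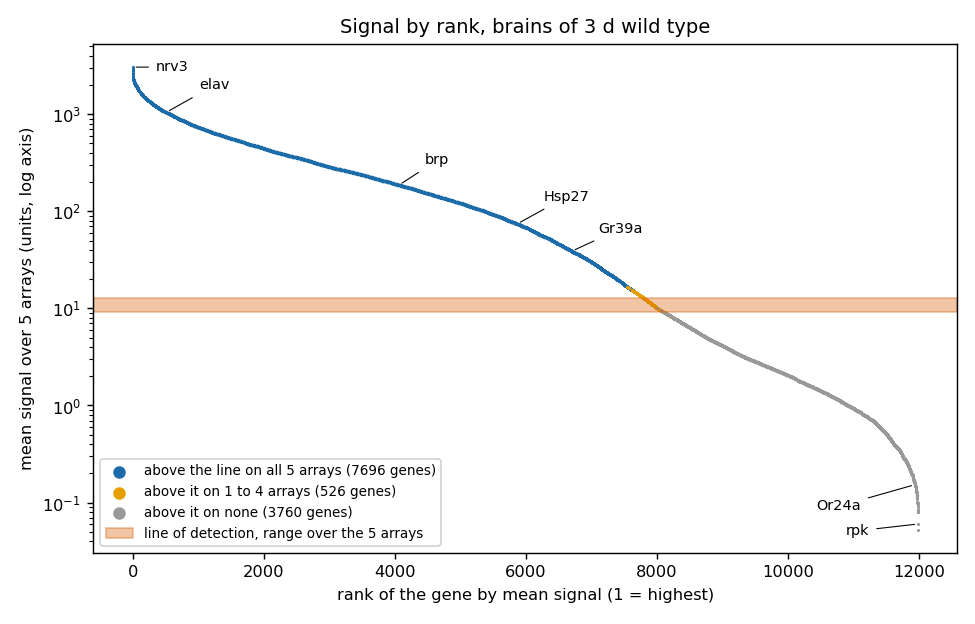
Mean signal over the 5 arrays of 3 d wild type (vertical log axis, units) against the rank of each of 11982 genes (horizontal axis, 1 = highest). Colours show on how many arrays a gene lay above the line of detection, whose range over arrays of 9.17 to 12.8 units is the shaded band. Means ran from 3057 to 654.7 units in the top 10% of genes and from 1.12 to 0.0526 in the lowest 10%.

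The tissue label was checked against marker genes. All 5 measured neuronal markers were detected, among them elav, an RNA-binding protein of neurons, at 1045 ± 60.1 units, fne, its relative, at 1226 ± 58.4, and the vesicle fusion gene nSyb at 730 ± 63.2. The active zone gene brp was detected at 186 ± 8.92. All 6 measured glial markers were detected as well, with the astrocyte gene alrm at 2025 ± 18.5 units and the glial transcription factor gene repo at 872 ± 46.7. Of the germ line and gonad markers 2 belong to the genes that set the line, and the other 3 measured ones, vas (0.493 ± 0.466), osk (1.62 ± 0.937) and bam (1.26 ± 0.630), were below it on every array.

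Markers of other tissues were present at unequal levels. All 6 measured photoreceptor markers were detected, and Arr2 and Arr1, the arrestins that end the light response, were at 2571 ± 46.1 and 1720 ± 32.2 units. The summed signal of these 6 markers ranged from 5950 to 6200 units over the arrays. The labels do not say whether any retina stayed on the brains. Of 7 fat body markers 5 were detected, with the storage protein gene Lsp2 at 1025 ± 24.7 units and the yolk protein gene Yp1 at 22.6 ± 8.76. Of 7 haemocyte markers 5 were detected, Pxn, a peroxidase of the extracellular matrix, at 676 ± 36.3 units and the haemolectin gene Hml at 80.4 ± 10.7. The 4 measured muscle markers were detected at low level, summing to 241 to 275 units over the arrays, and 3 of 6 gut markers were detected too, with the protease gene Jon65Aiii at 86.0 ± 4.03 and the trypsin gene alphaTry at 32.9 ± 3.36, while Jon99Fi was below the line at 1.06 ± 0.573. How much RNA of other tissues entered the brain samples was not tested.

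The brightest genes were a mix of genes used by all cells and genes of neurons and glia. The order leaves out probe sets that name several genes, which were not assessed, or none. Of those that name none, 56 had a mean above that of the 100th gene. Over all probe sets, controls included, the highest signal on an array was 3576.5 to 3927.9 units. Among the ranked genes the highest mean was that of nrv3, which encodes a beta subunit of the sodium pump of the nervous system. Its signals in repeats 1 to 5 were 3101, 3046, 3134, 3022 and 2981 units, a mean of 3057 ± 61.3. Next came the odorant-binding protein gene Obp44a, with 2883, 2902, 2857, 2917 and 2943 units. The 5 values of nrv3 all lay above those of Obp44a. After it came the non-coding RNA gene lncRNA:CR42862, with 2755, 3043, 2893, 2816 and 2809 units, which overlapped both of its neighbours in the order, Obp44a above and RpL41 below.

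Ribosomal protein genes took 6 of the first 20 places. RpL41 had 2800, 2768, 2816, 2911 and 2797 units, and RpL15 had 2653, 2638, 2733, 2610 and 2686. These 2 genes did not overlap. RpL39 (2530 ± 49.9), RpS18 (2399 ± 68.8), RpLP2 (2380 ± 91.6) and RpS28b (2240 ± 36.5) followed. Mitochondria were represented by sesB, the carrier that exchanges ADP for ATP across the inner membrane, with 2679, 2538, 2593, 2605 and 2665 units, and by UQCR-14, a subunit of respiratory complex III, at 2240 ± 48.3.

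Genes of the nervous system in the first 20 covered a peptide, a transmitter enzyme and a transport motor. Ms, the precursor of the peptide myosuppressin, had 2266, 2325, 2249, 2349 and 2278 units. Gad1, the enzyme that makes GABA from glutamate, had 2188, 2288, 2275, 2176 and 2221. The kinesin gene unc-104, whose motor carries synaptic vesicle precursors along axons, had 2162, 2249, 2252, 2195 and 2233. The values of Gad1 and unc-104 overlapped, so their order is not resolved. The light-response gene Arr2 stood at rank 7, with 2596, 2580, 2627, 2508 and 2546 units.

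The other genes of the first 20 were CG8369 (2369 ± 69.9), the fatty acid binding protein gene fabp (2270 ± 69.4), the ferritin light chain gene Fer2LCH (2245 ± 56.2), CG10433 (2235 ± 67.0) and 14-3-3epsilon (2189 ± 74.0), a protein that binds phosphorylated partners. Between neighbours in this order the ranges of the 5 arrays overlapped in 16 of 19 pairs and were apart in 3. Compared array by array, the order of the overlapping pairs held on 2 to 4 of the 5 arrays. Most single ranks are therefore not resolved by these arrays.

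**Figure D2:**
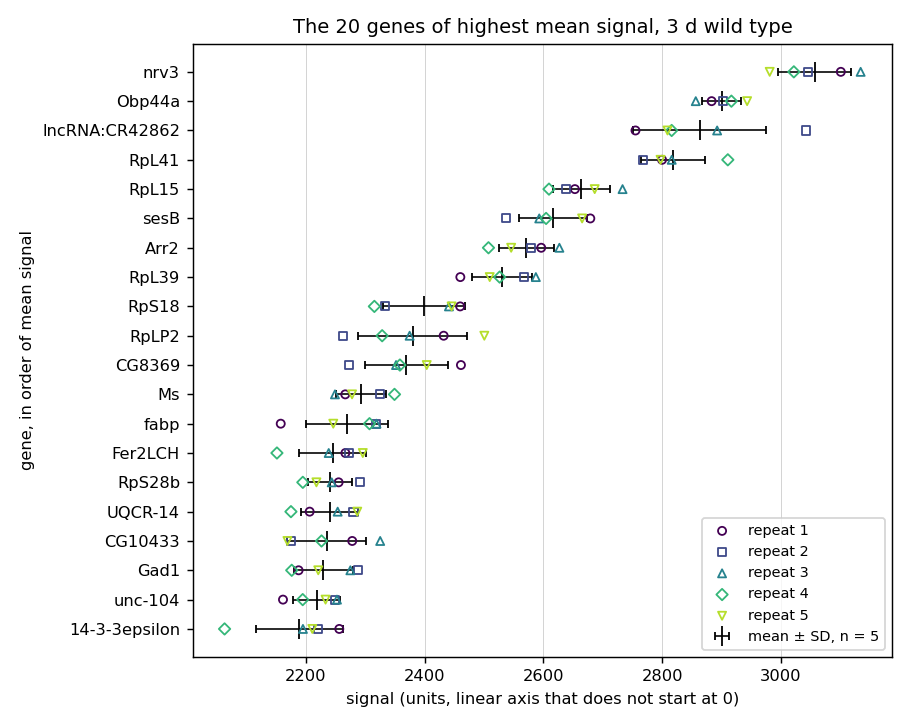
Signal of the 20 brightest genes (rows, in order of mean) in each of the 5 arrays of 3 d wild type (symbols, horizontal axis in units), with mean ± SD as bars. From nrv3 at 3057 to 14-3-3epsilon at 2189 units the points of most neighbouring rows overlap.

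The top of the range was narrow. The gene at rank 100 was hig, a protein of the synaptic cleft, at 1722 ± 66.2 units, so that rank 1 exceeded rank 100 by a factor of 1.78. The genes just inside, Ubi-p63E (1728 ± 19.7) and Ubi-p5E (1724 ± 84.0), which encode ubiquitin, and those just outside, Arr1 (1720 ± 32.2), Ric (1720 ± 28.7) and CG31705 (1720 ± 34.5), had the same level within their spread. The 100 genes, 0.835% of all, held 7.65% ± 0.0799 (SD, n = 5) of the summed signal of all genes, and the top 10%, 1199 genes with means of at least 654.7 units, held 49.1% ± 0.287. Of the 100 genes 18 were in the list of cytosolic ribosomal proteins, 12 in those of respiratory complexes I to V and 3 each in those of translation factors, glia, synaptic vesicle genes and neuropeptide processing. A total of 50 were in none of the lists, and 16 had only a CG or CR number as their name. Of the 100 genes 49 were read by a probe set of the kinds that can share probes between transcripts or related genes (IDs ending in _s_at, _x_at or _a_at), against 2233 of all genes, and RpL41, RpL15, sesB, nrv3 and Gad1 are among them.

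Gene lists show where chosen functions lie in the range. They do not show what fills it, since 86.7% of all genes were in no list. Cytosolic ribosomal proteins stood highest: 29 of 34 measured members lay in the top 10%, and their median signal was 1780 units against 68.4 over all genes. With only probe sets of the unshared kind 20 ribosomal genes were measured, and 12 of them lay in the top 10%. That share was below the 15 of 22 of complex I genes, so the first place depends on the probe sets used. The median of this list ranged from 1746 to 1821 over the arrays. Respiratory chain genes were also high. Of 32 complex I genes 23 were in the top 10%, led by ND-MLRQ at 1893 ± 60.7 units, or 15 of the 22 measured by unshared probe sets. Of 47 genes of complexes II to V 30 were, led by UQCR-14, the cytochrome oxidase subunit gene COX4 (2055 ± 70.8) and the ATP synthase gene ATPsynC (2018 ± 55.2). By unshared probe sets 20 of 38 were.

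Glycolysis, which supplies pyruvate to mitochondria, had 9 of 13 listed genes in the top 10%. The brightest of the list, Gpdh1 (1677 ± 36.0), encodes a glycerol phosphate dehydrogenase, which is not a step towards pyruvate. The enolase gene Eno (1574 ± 94.0) followed. Translation factors had 20 of 48 there, with the RNA helicase eIF4A at 2175 ± 52.6 units and the elongation factor gene eEF1alpha2 at 2118 ± 60.7. Mitochondrial ribosomal proteins were all detected, 69 of 69, at a median of 470 units, and 21 of them were in the top 10%. Proteasome genes stood lower, with 4 of 40 in the top 10%, a share equal to that of all genes, and Rpn11, which removes ubiquitin from substrates, the brightest at 898 ± 32.7. Their median was 355 units. These shares count gene copies, described below: 14 of the 40 proteasome genes, of which 13 were below the line on every array. Complex I held 4 such copies among 32 genes, and complexes II to V held 10 among 47. All 29 aminoacyl-tRNA synthetase genes were detected and none was in the top 10%.

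Genes of transmitter release were also frequent at the top. All 31 synaptic vesicle and release genes were detected and 20 were in the top 10%, at a median of 819 units. With unshared probe sets alone 12 of 21 were. The brightest was cpx, complexin, which clamps and assists vesicle fusion, with 1999, 1977, 2040, 1894 and 1954 units. Syngr, synaptogyrin of the vesicle membrane, was at 1836 ± 35.01, and VAChT, which loads acetylcholine into vesicles, at 1777 ± 37.0. The vesicle proton pump is described with its gene copies below.

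Genes that make peptide signals were frequent in the top 10%, and the receptor genes were absent from it. Of 10 genes that process peptides or serve dense core vesicles 7 were in the top 10%, at a median of 1271 units. By unshared probe sets alone 5 of 9 were. IA-2, a phosphatase-like protein of dense core vesicles, was at 2167 ± 96.7, 7B2, the partner of the prohormone convertase, at 1971 ± 48.0, and amon, that convertase, at 1731 ± 49.9. Of 35 peptide precursor genes 13 were in the top 10%, with AstC (1464 ± 76.6) and Nplp2 (1384 ± 23.0) after Ms. The median was 454 units. Of 24 neuropeptide receptor genes none was in the top 10% and 19 (79.2%) were detected, at a median of 121 units, with the receptor genes SPR (624 ± 38.0), sNPF-R (478 ± 6.91) and Dh31-R (347 ± 14.6) the brightest. Among the precursors AstCC (7.60 ± 0.997), amn (2.35 ± 1.13) and Burs (1.75 ± 0.942) were below the line on every array, as was dimm (2.72 ± 0.799), a transcription factor gene of peptide-secreting cells.

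Receptors for fast transmitters ranged from the top 100 to below the line. Of 31 receptor genes 23 (74.2%) were detected and 6 were in the top 10%, led by nAChRbeta1, a nicotinic acetylcholine receptor subunit, with 1971, 1843, 1814, 1851 and 1927 units, and by GluClalpha, a glutamate-gated chloride channel, at 1094 ± 74.0. GluRIIE (3.34 ± 0.926) and GluRIIB (0.889 ± 0.543), subunits known from the larval nerve-muscle junction, were below the line. In the list of ion channels and sodium pump subunits 32 of 34 genes were detected and 14 were in the top 10%, with nrv3, nrv2 (1940 ± 95.9) and unc79 (1310 ± 40.2), which belongs to a sodium leak channel complex. Among 26 monoamine genes 23 were detected, and Ddc, which makes dopamine and serotonin, was at 1379 ± 56.8 and Vmat, which loads them into vesicles, at 1331 ± 37.4. The calcium and G protein list had 10 of 22 in the top 10%, with the calsyntenin gene Cals at 1822 ± 42.9. That list holds Dronc, a caspase gene, through an old synonym.

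Genes of glia were frequent in the top 10% as well. Of 28 glial genes 13 were in the top 10% and 27 were detected, at a median of 604 units, with alrm, Gs2, a glutamine synthetase that turns transmitter glutamate into glutamine, at 2005 ± 42.5, and nrv2 brightest. The phototransduction list had 11 of 25 in the top 10% and all 25 detected, with Arr2, Arr1 and Cds (1611 ± 95.3), an enzyme of phosphoinositide recycling. Clock genes were all detected, 13 of 13, and 2 were in the top 10%, Pdp1 (1013 ± 163) and Pdf (836 ± 34.8), the peptide of clock neurons.

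**Figure D3:**
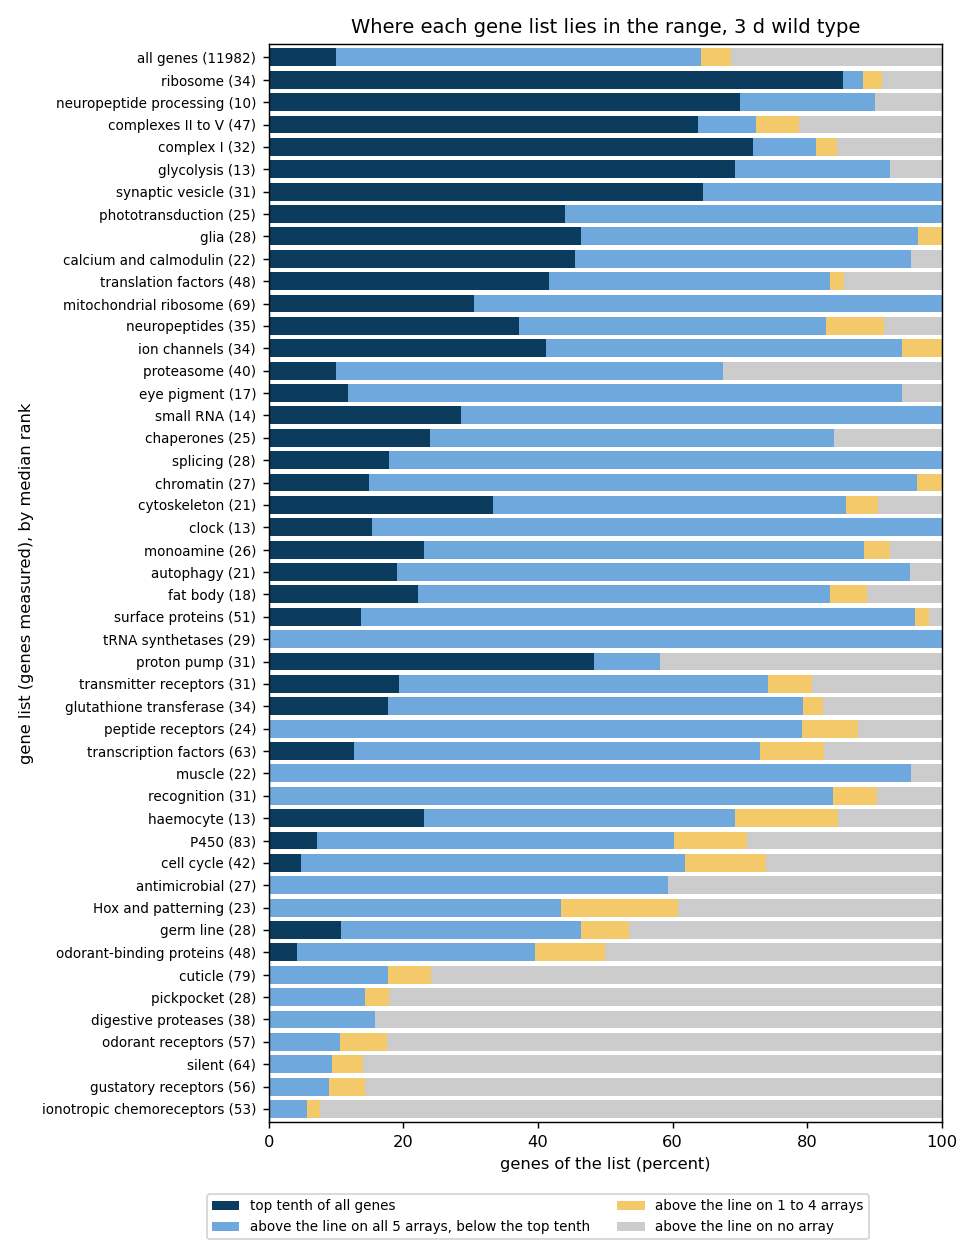
Share of each gene list (rows, number of measured genes in brackets, ordered by median rank) that lay in the top 10% of all genes, lower but above the line on all 5 arrays, above it on 1 to 4 arrays, or on none (horizontal axis, percent of the list). The top row is all 11982 genes, and lists run from ribosome, with 29 of 34 in the top 10%, to ionotropic chemoreceptors, with 49 of 53 on no array.

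The middle of the range lay near 68.4 units, the median gene. Lists whose median fell there were those of immune recognition and signalling (68.0 units, 26 of 31 detected) and muscle contractile genes (71.7 units, 21 of 22 detected). Their members were widely spread, from 0.681 to 454 units for immune recognition and from 5.18 to 601 for muscle. The list of haemocyte genes was a little lower, at 50.5 units with 9 of 13 detected. That of neural transcription factors was a little higher, at 90.1 units with 46 of 63 detected and 8 in the top 10%. Its brightest member, elav, is the RNA-binding protein named above and not a transcription factor, and pros (957 ± 47.5) and lola (905 ± 6.29) followed. Of the listed genes nearest to the median, the small heat shock gene Hsp27 had 74.3 ± 3.80 units, the opsin gene Rh7 70.8 ± 2.74, and the immune adaptor genes Fadd and imd 69.4 ± 5.63 and 67.2 ± 4.52. The recognition gene GNBP3 was at 68.0 ± 4.10, the cell cycle kinase gene Cdk4 at 68.1 ± 3.37 and the muscle troponin gene up at 67.7 ± 4.91. All of these were above the line on all 5 arrays.

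Chromatin, splicing and small RNA genes lay between the middle and the top. All 28 splicing genes and all 14 microRNA and RNA interference genes were detected, at medians of 280 and 299 units, and 26 of 27 Polycomb, trithorax and insulator genes, at 265. Neuronal surface proteins of the dpr, DIP and beat families were detected in 49 of 51 cases, at 174 units, with dpr7 at 1296 ± 62.97. DIP-iota, at 4.91 ± 1.28, was below the line.

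Cytochrome P450 genes and immune peptides were detected in shares near that of all genes, 64.2%. Of 83 genes matched by the P450 pattern 50 (60.2%) were detected and 24 were not, and the brightest, Cyp1 (1441 ± 44.0), is a cyclophilin that shares the symbol stem, followed by Cyp28d1 (1196 ± 32.3). Of 34 glutathione transferase genes 27 (79.4%) were detected, with GstE12 at 1444 ± 28.4. Of 27 antimicrobial and immune-induced peptide genes 16 (59.3%) were detected and 11 were not, with BomT3 (505 ± 65.5), Drsl5 (339 ± 8.57) and TotC (248 ± 18.7) at the top and AttD (0.788 ± 0.567), TotZ (0.752 ± 0.384) and TotB (0.472 ± 0.366) at the bottom.

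Of the 3760 genes below the line on every array 2292 (61.0%) had only a CG or CR number as their name, against 43.6% of all genes, and 3262 (86.8%) were in no list, against 86.7% of all genes. Lists with most members there were those of receptors of the sense organs, cuticle and digestive genes, which together gave 259 of the 3760. Of 57 odorant receptor genes 47 were below it on every array, of 56 gustatory receptor genes 48, of 53 ionotropic chemoreceptor genes 49, of 28 pickpocket channel genes 23, of 38 digestive enzyme genes 32 and of 79 cuticle genes 60, where 31.4% of all genes were. Their medians ranged from 1.18 to 3.67 units, in the range of the bacterial control probe sets and little above. The cuticle list shares 6 genes with the set behind the line. With the line at the 90th percentile of the bacterial controls these counts were 14, 22, 25, 2, 7 and 11. They therefore rest on the line used. Of all genes 7.60% lay below that line on every array. The pickpocket count, 2 of 28, was not above this share, while those of the other lists were. Hox and segment patterning genes were spread around the line, 10 of 23 detected and 9 not, with zen at 0.219 ± 0.0669 units.

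Single members of these families stood far above the rest. Ir76a, an ionotropic chemoreceptor gene, had 453, 464, 420, 459 and 468 units, and Or43b, an odorant receptor gene, had 362, 383, 430, 416 and 355. Or63a (278 ± 7.63) and Ir68a (117 ± 6.25) came next. Among gustatory receptor genes the brightest, Gr39a, reached 38.8 ± 4.72 units, and among pickpocket genes ppk8 reached 61.1 ± 4.22. Among odorant-binding proteins 19 of 48 were detected and 24 were not, and the gap was wide: after Obp44a came Obp99c (902 ± 21.5) and Obp99b (617 ± 22.7), while the median was 8.35 units. The maltase gene Mal-A5 stood alone among digestive genes, at 630 ± 9.66 units, ahead of Mal-B2 at 104.3 ± 6.15. Ir76a is read by a probe set of the shared kind.

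Families of the respiratory chain, the proteasome and the proton pump held a bright main gene and copies that lay mostly below the line. This pattern was noticed in the values and then collected by symbol, so it is a description. In the respiratory chain and proteasome lists, 28 copies carry the symbol of another measured gene plus L, T or R. Of these, 20 were below the line on every array, 4 were above it on 1 to 4 arrays and 4 were detected. All 28 lay below their main gene on all 5 arrays. The main genes, 22 in number, ranged from 83.4 to 2240 units and the copies from 0.207 to 186, with a median of 2.56.

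The complex III gene UQCR-14 and its copy UQCR-14L are one such pair. UQCR-14 had 2206, 2280, 2254, 2175 and 2287 units and UQCR-14L had 1.54, 3.38, 2.99, 1.64 and 2.07. Every value of the copy lay under the line, where its level is not resolved. The complex I gene ND-20 was at 1091 ± 31.5 and ND-20L at 0.968 ± 0.568. For the proteasome, Prosalpha6 was at 380 ± 12.4 and Prosalpha6T, known as a testis form, at 0.207 ± 0.0825, and Prosbeta5 was at 713 ± 20.7 and Prosbeta5R1 at 0.417 ± 0.334. All 13 proteasome genes below the line were such copies. COX7AL2, at 186 units, was the brightest copy, beside COX7A at 1673 ± 30.7.

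The vesicle proton pump, which acidifies synaptic vesicles and lysosomes, also held bright and dim genes. Here the main gene was not set by symbol but taken as the brightest of its subunit. That the others have lower means follows from this choice. Of its 31 genes 15 were in the top 10% and 13 were below the line, and with unshared probe sets alone 9 of 24 were in the top 10%. In the 7 subunits with several numbered or lettered genes the brightest gene ranged from 1022 to 1715 units, and 12 of the other 16 were below the line on every array. Vha16-1, which forms part of the proton channel, was at 1715 ± 58.1 units, while Vha16-2, Vha16-3, Vha16-4 and Vha16-5 had means from 1.17 to 2.10. Vha100-1, the form of the large membrane subunit known from neurons, was at 1276 ± 45.5, Vha100-2 at 153 ± 14.5 and Vha100-4 at 0.314 ± 0.403. VhaM9.7-a, at 1113 ± 27.2 beside VhaM9.7-b at 1335 ± 42.7, was the brightest of these 16, and it lay below VhaM9.7-b on all 5 arrays.

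**Figure D4:**
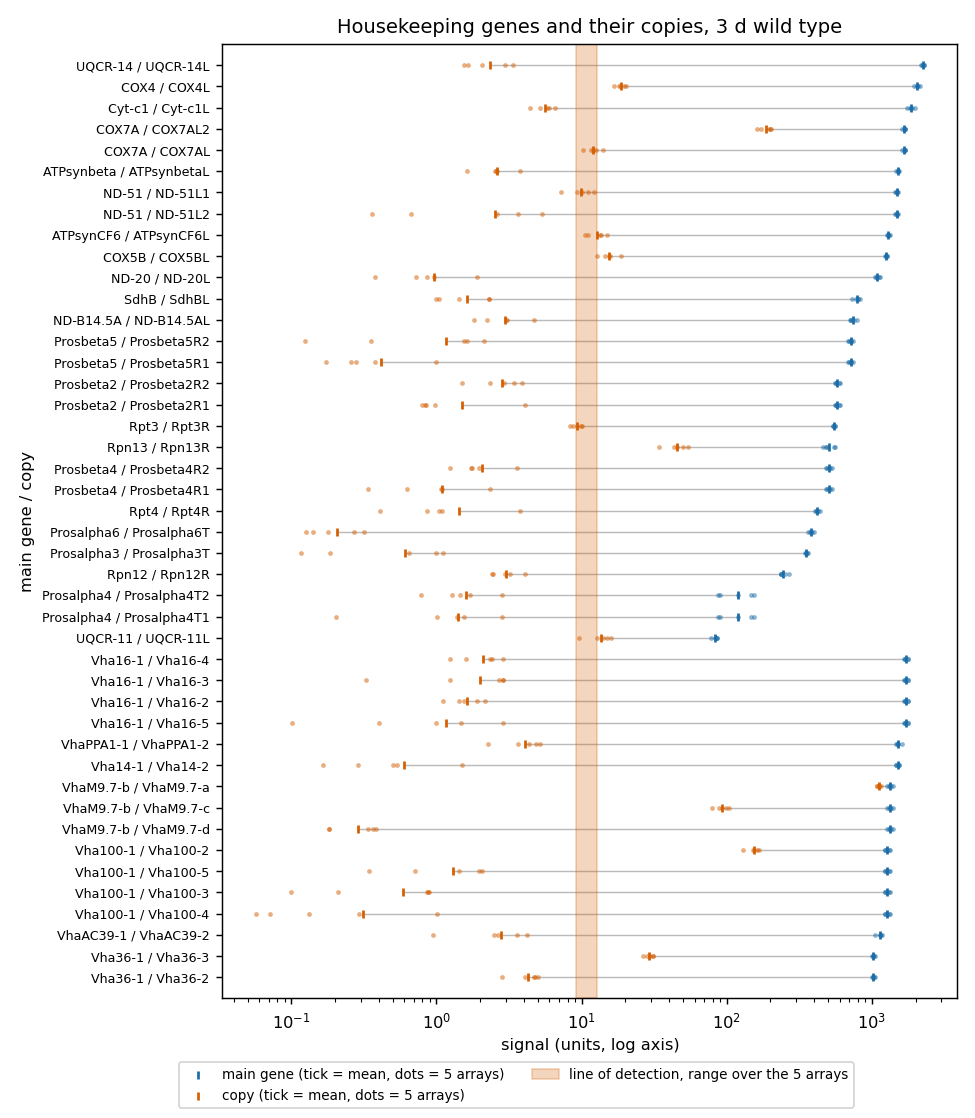
Signal of main genes (blue) and their copies (orange) in 3 families, with means as ticks and the 5 arrays of 3 d wild type as dots (horizontal log axis, units); the upper rows are respiratory and proteasome genes and the lower rows the proton pump. Copies lie mostly left of the shaded line of detection, as UQCR-14L at 2.32 units against UQCR-14 at 2240. For the proton pump the main gene is the brightest of its subunit, so its copies have lower means by that choice.

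Genes of different brightness also differed in other features. The median gene span in the RefSeq annotation was 4139 bp in the top 10%, 2761 bp in the sixth 10% band and 1387 bp in the lowest. Genes known only by a CG or CR number made up 23.3% of the top 10%, 43.9% of the sixth band and 62.7% of the lowest. The share of X-linked genes showed no steady order, with 16.8% in the top 10%, 14.2% in band 3, 19.3% in band 7 and 11.5% in the lowest band. Array-to-array variation rose as signals fell: the median coefficient of variation (CV, SD over mean) was 3.33% in the top 10%, 9.10% in the sixth band and 70.5% in the lowest. Below the line neither a level nor an order is resolved.

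**Figure D5:**
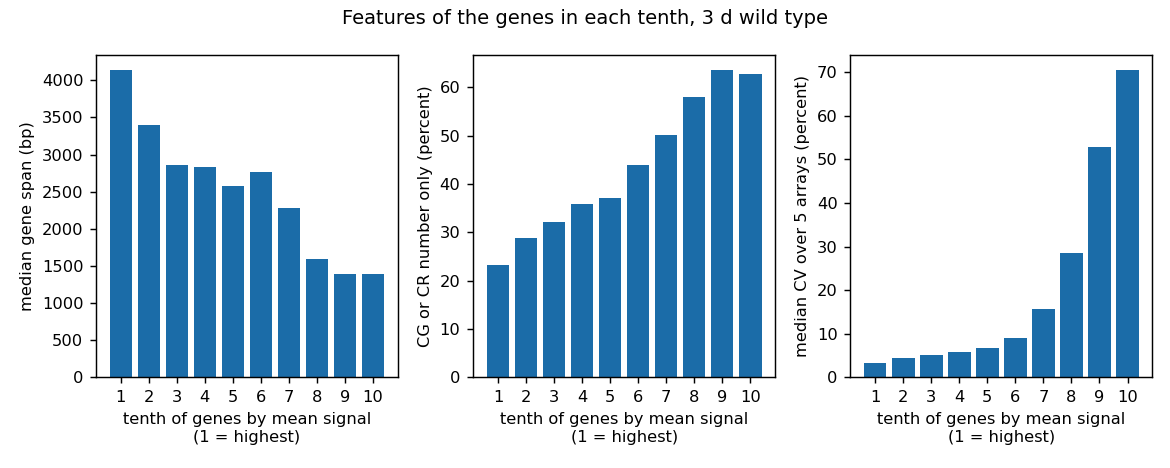
Features of genes in 10 equal bands of mean signal (horizontal axes, 1 = highest): median gene span in bp (left), percent of genes with a CG or CR number only (middle) and median CV over the 5 arrays in percent (right), each as bars from 0. Span falls from 4139 to 1387 bp, the share of numbered genes rises from 23.3% to 62.7% and the CV from 3.33% to 70.5% between the first and the last band.

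Within the top 10%, 1177 of 1199 genes had a CV under 10%. The 10 with the largest CV included the clock gene Pdp1 and the neuronal genes Syn, Cadps, NaCP60E and onecut. Pdp1 had 811, 1192, 1103, 870 and 1087 units, and mamo, a zinc finger gene with the largest CV of 20.3%, had 910, 1004, 968, 585 and 766. Syn, which tethers synaptic vesicles, had 638, 855, 868, 868 and 706. Cadps, a priming factor of dense core vesicles, had 639, 882, 837, 750 and 680, and NaCP60E, a sodium channel-like gene, had 647, 849, 823, 597 and 706. Repeat 2 was the highest array in 7 of the 10 genes, and repeats 1 and 4 were the lowest in 5 and 4. The 3′ to 5′ ratios of the control probe sets differed in which repeat was highest, repeat 2 for eIF-4a (3.25, with the others from 3.03 to 3.22), repeat 4 for actin (2.51, others from 2.25 to 2.32) and repeat 1 for GAPDH (1.835, others from 1.75 to 1.78). Their part in this variation was not tested. These 10 genes had a median span of 24968 bp, against 4139 bp in the top 10%.

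Most of the brightest genes were also among the brightest in the other groups. Of the 100 brightest genes, 76 were among the 100 brightest of wild type at 20 d, 90 of the 3 d null group and 78 of the 20 d null group, read by the same probe sets. Their signals were a median of 1.01 of the 3 d wild-type value in 3 d nulls, 0.877 in 20 d nulls and 0.863 in wild type at 20 d, while over all detected genes the median ratios were 0.986, 0.997 and 1.01. The genes were chosen on the 3 d wild-type values, and no test was made. The gene that kept the lowest place was nkt, at rank 369 in 20 d null. Of the 3760 genes below the line in 3 d wild type, 83 were above it on all 5 arrays at 20 d in wild type, 83 in nulls of 3 d and 72 in nulls of 20 d, each group with its own line. Of the 7696 detected genes 19, 45 and 74 were below the line on every array of these groups.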

How the data were processed

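Total RNA of dissected fly brains was hybridised to 1 array per sample, 20 arrays in 4 groups of 5, and the 5 arrays of 3 d wild type (titles with repeats 1 to 5) were analysed. The deposited intensity values are linear probe set signals. The submitters' processing notes list GCRMA and MAS5 without a role for either, and each array's description in the labels points to MAS5 output. Their parameters are not given in the sources used here. The signals were used as deposited, since the mean after trimming 2% at each end was 150 on every array.

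Control probe sets (183), 402 probe sets naming several genes and 4720 naming none were left out. Symbols came from the platform annotation and were checked through gene identifiers against RefSeq (assembly Release 6 plus ISO1 MT, used for names, gene span and chromosome only), which held all but 103 of 13647 probe sets. No genome build is named for the array in the labels, and no sequences are printed.

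Genes were ranked by the mean of their brightest probe set and cut into 10 equal bands (Python 3.11.15, pandas 2.3.3). The ranking code was run on simulated data with genes planted above the brightest real gene or far below the line. This checks the code and not the order of real genes. Genes were named from the 20 brightest, the 3 brightest and up to 3 dimmest undetected members of each of 47 lists, listed genes near the median, the 10 of largest CV in the top 10%, genes around rank 100 and cell markers; gene copies, nkt and Dronc were added after values were seen. Members and lists were chosen with earlier results of these data known. Of 725 listed names and patterns 19 were not matched and 109 had no probe set naming them alone. No comparison between groups was tested. Alternatives were other probe set rules, quantile normalization, other lines and leaving out each array. The number of arrays limits the precision.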

Additional observations from a re-analysis of the deposited data

Results flagged for a closer look

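Among 136 genes with values in the text 5 had 1 array apart from the other 4 by Dixon's criterion, which chance meets in about 1 of 20 groups, and 425 of all detected genes (5.52%) had one. The immune-induced peptide gene BomT3 had 533.6, 547.8, 548.8, 392.7 and 503.9 units in repeats 1 to 5, and repeat 4 was the low one. The other 4 genes were below the line on every array, with the array apart at 1.00 unit for Prosbeta5R1 (repeat 2), 1.11 for TotB (repeat 1), 1.01 for Vha100-4 (repeat 4) and 0.336 for zen (repeat 2).

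Probe sets that name no gene were left out of the ranking, and 1188 of these 4720 (25.2%) lay above the line on all 5 arrays, while 3174 did so on none. A total of 56 had a mean above that of the 100th gene, and the highest reached 2969 units.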

How the results depend on the processing

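Of 190 values recomputed for 17 results under 14 other settings 170 moved by less than the spread or stayed within 1.5 times the count. The other 20 moved by more. None of the values came from a test, and changes of direction were not assessed. Leaving out each array gave 3762 to 3871 genes below the line, a share of the 100 brightest genes of 7.628% to 7.680%, and 96 to 99 of the 100 genes kept. The mean over the probe sets of a gene gave a share of 7.950%. Without probe sets ending in _s_at, _x_at or _a_at 10075 genes were left, the share was 10.156%, 53 of the 100 genes were kept, and the top 10% held 12 ribosomal, 15 complex I, 9 proton pump and 12 synaptic vesicle genes. A line at the 75th percentile put 2443 genes below it, with 33 cuticle and 18 digestive genes, one at the 95th put 17 Hox and patterning genes there, and one at the array's median 5845 genes. With a line from the bacterial controls, chosen after seeing the data, 911 genes (7.60% of all) lay below it. Among them were 14 odorant receptor, 22 gustatory, 25 ionotropic, 2 pickpocket, 11 cuticle, 7 digestive and 4 Hox and patterning genes. The cause of these shifts was not tested. Signals near the line limit what can be said of dim genes. No paired analysis was possible because no result comes from a test between groups.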
